A study of Mus musculus with 32 samples.

Results

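The early response of mesenteric arteries to angiotensin II (Ang II) was read from 16 of the 32 small RNA libraries of the series, 8 from mice infused for 7 days and 8 from their sham-operated controls. Both groups were male C57BL/6J wild-type mice aged 10 to 12 weeks. The infused mice received 1000 ng/kg/min of Ang II under the skin from an osmotic pump, and the controls underwent sham surgery without an infusion. The arteries were freed of fat, veins and other surrounding tissue before total RNA was extracted, and the labels give 10 mice per group, of which 8 gave a library. The other 16 libraries, from mice infused or sham-operated in the same way for 14 days, served to share 1 estimate of the spread and as a comparison. Of 1030 distinct miRNA rows, the 543 with a mean of at least 1 over the 32 libraries were tested.

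Mesenteric arteries feed the gut, and their small branches contribute to the resistance that sets blood pressure. Ang II is a peptide hormone that constricts arteries, raises blood pressure and drives growth, matrix deposition and inflammation in the vessel wall. A miRNA is cut as a duplex from a hairpin, and 1 strand, or arm, is loaded into an Argonaute protein, where bases 2 to 8, the seed, direct it to target messages. The 5p arm comes from the 5′ side of the hairpin and the 3p arm from the 3′ side, and miRNAs with a shared seed can bind many of the same targets.

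The mature sequences below are those of miRNAs described after the 1 call, from RefSeq (GRCm38.p6), written 5′ to 3′ with the seed in capitals. The first 4 are imprinted-region miRNAs with higher means in Ang II libraries, and the next 2 are the arms of the hairpin whose arm balance had the smallest p.
miR-411-5p: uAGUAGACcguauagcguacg
miR-298-5p: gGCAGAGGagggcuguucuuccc
miR-673-5p: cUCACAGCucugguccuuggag
miR-431-5p: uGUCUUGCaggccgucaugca
miR-540-3p: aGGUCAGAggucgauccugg
miR-540-5p: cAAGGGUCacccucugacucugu

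Of the seed families described below, 3 are shown by their members, so that the shared capitals can be read against the differing tails.
miR-21a-5p: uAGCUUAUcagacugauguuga
miR-21c: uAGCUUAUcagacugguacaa
miR-132-3p: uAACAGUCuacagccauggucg
miR-212-3p: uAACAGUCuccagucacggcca
miR-26a-5p: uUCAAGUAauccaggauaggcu
miR-26b-5p: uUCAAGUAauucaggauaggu

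Recovered reads in distinct rows numbered 11.4 to 17.9 M (mega) per 7-day library, with a mean of 15.3 ± 1.93 M in Ang II and 15.96 ± 0.778 M in sham libraries (SD, n = 8 each, exact two-sided permutation p = 0.387). Levels are given as normalised RPM, the authors' scaled reads per M. The arteries carried the miRNAs of smooth muscle, since miR-143-3p took 48.0% ± 3.40 of the reads (SD, n = 16 libraries), while miR-10b-5p took 8.22% ± 2.92, miR-26a-5p 5.89% ± 1.02, miR-10a-5p 5.32% ± 0.848 and miR-30a-5p 3.12% ± 0.650. Over all 32 libraries, the leading component of the spread within groups held 35.6% of that variance and split the libraries into class A and class B at its widest gap. Class A held 5 sham and 3 Ang II libraries of the 7-day groups, and class B held 3 and 5. Group means were taken out before the split, so these counts do not compare the level of that component between groups. Summed leukocyte markers ran from 608 to 887 RPM in sham and from 573 to 1549 with Ang II, and summed red blood cell markers from 9645 to 47778 and from 13010 to 68907. Markers of other tissues were also present. Summed pancreas markers ran from 2371 to 6152 RPM in sham and from 2650 to 5593 with Ang II. Liver and gut markers ran from 1558 to 5699 and from 1102 to 8892, and epithelium markers from 1331 to 3210 and from 1414 to 2846. The source of these reads was not tested. In bulk arteries, fewer cells of a type and less of a miRNA per cell cannot be told apart.

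After 7 days, 1 of 543 miRNAs was called with limma at an adjusted p under 0.05. It was miR-145a-3p, the less abundant arm of the miR-145a hairpin, whose locus also encodes miR-143 and is strongly active in contractile smooth muscle cells. Its level ran from 684 to 1186 RPM in the sham libraries, with a median of 876, and from 368 to 865 with Ang II, with a median of 586. In 6 of 8 Ang II libraries it lay below every sham library, and in the other two it stayed below the sham median, so the groups overlapped at their edges. The mean was 895 ± 159 RPM in sham and fell to 596 ± 142 (SD, n = 8 per group), or 0.658-fold, with a log2 fold change of -0.60 ± 0.13 (SE) and a limma adjusted p of 0.0280. Calls at an adjusted p under 0.05 made up 0.184% of the rows tested. At an unadjusted p under 0.05 there were 37 (6.81%), of which 24 were higher (4.42%) and 13 lower (2.39%). The ranges of the groups overlapped in every one of the 543 rows.

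The fall of miR-145a-3p had the same direction in both library classes, with a log2 fold change of -0.68 within class A and -0.50 within class B, and in both mouse-number series, with -0.61 in series 27 and -0.48 in series 28. The call was sensitive to single mice. It was lost in 10 of the 16 fits that left out 1 library, namely sham replicates 2, 5, 6, 7 or 8 and Ang II replicates 1 to 5, with adjusted p values up to 0.110 over all 16 fits. It was also lost with library totals in place of the authors' scaling (adjusted p = 0.994) and with the 7-day libraries alone (adjusted p = 0.176).

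The other products of the same locus, and the related miR-145b, did not pass the main limma test. The dominant arm, miR-145a-5p, which restrains growth and holds smooth muscle in its contractile state, ran from 1745 to 2977 RPM in sham (median 2166) and from 1478 to 2085 with Ang II (median 1825). Its 8 Ang II libraries all lay below the sham median, as did those of 8 of the 543 rows (1.47%), and its log2 fold change was -0.32 ± 0.16 (SE, adjusted p = 0.704). The related miR-145b, whose reads could be shared with miR-145a-5p because the sequences are alike, had medians of 11.6 in sham and 8.63 with Ang II and a log2 fold change of -0.48 ± 0.18 (SE, adjusted p = 0.438). For miR-143-3p the medians were 488652 and 510744 RPM, the Ang II range contained the sham range, and the log2 fold change was -0.04 ± 0.21 (SE, adjusted p = 0.995). The 3p to 5p ratio of miR-145a, which does not depend on library scaling, had a log2 mean of -1.31 ± 0.292 in sham libraries and -1.59 ± 0.289 in Ang II libraries (SD, n = 8 per group), a difference of -0.28 with a limma adjusted p of 0.897.

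**Figure D1:**
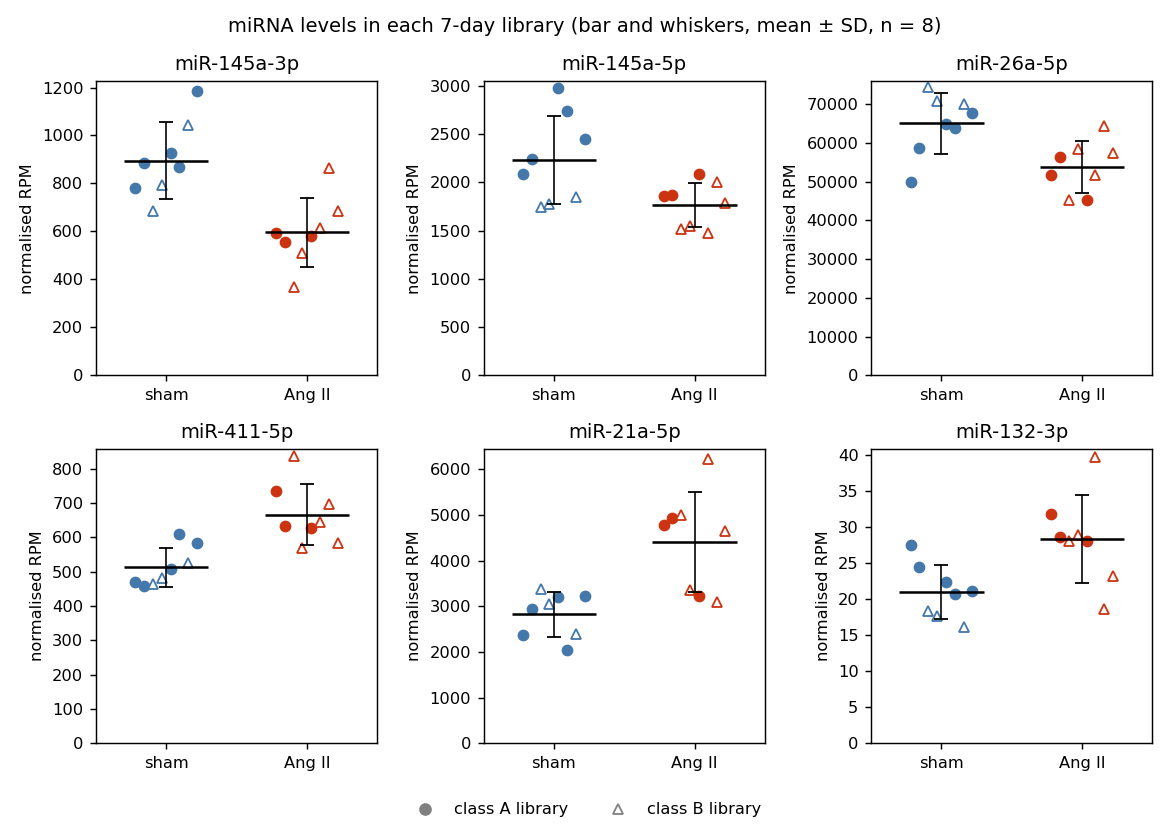
Normalised RPM of 6 miRNAs in each 7-day library, sham in blue and Ang II in red, with filled circles for class A, open triangles for class B, and bars with whiskers for mean ± SD (n = 8). The Ang II points of miR-145a-3p, miR-145a-5p and miR-26a-5p all lie below the sham median, those of miR-411-5p and miR-21a-5p all lie above it, and 7 of 8 do for miR-132-3p.

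Among miRNAs with higher means in Ang II libraries, none passed the test with limma. The smallest p belonged to miR-411-5p, a member of the imprinted Dlk1-Dio3 cluster on chromosome 12, whose hairpin lies at chr12:109710175-109710256 outside annotated genes. It ran from 457 to 610 RPM in sham (median 495) and from 568 to 838 with Ang II (median 638). Every Ang II library lay above the sham median, which held for 18 of 543 rows (3.31%), and 6 lay above every sham library. Its log2 fold change was 0.37 ± 0.11 (SE, adjusted p = 0.253), with 0.35 within class A, 0.43 within class B, 0.53 in series 27 and 0.20 in series 28.

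The rule for the smallest p values took 3 further members of the cluster. Near its proximal end, miR-673-5p (hairpin chr12:109571990-109572080) ran from 10.9 to 18.4 RPM in sham (median 14.6) and from 14.8 to 21.2 with Ang II (median 20.1). Each Ang II library exceeded the sham median, and the log2 fold change was 0.40 ± 0.12 (SE, adjusted p = 0.324). Further along, miR-431-5p, which is made opposite an exon of the imprinted gene Rtl1, ran from 15.2 to 19.01 RPM in sham (median 17.6) and from 15.5 to 33.2 with Ang II (median 23.5), where 6 of 8 libraries lay above every sham library. It differed by 0.41 ± 0.15 (SE, adjusted p = 0.438) on the log2 scale. Its value was 0.57 in series 27 and 0.17 in series 28. miR-134-5p, from an exon of the noncoding gene Mirg, had medians of 9.36 and 11.3 RPM, and 8 of 8 Ang II libraries lay above the sham median (0.33 ± 0.13 SE, adjusted p = 0.495).

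In the Dlk1-Dio3 cluster, 47 of 58 tested members had a log2 fold change above 0 and the median was 0.18, beside 253 of 543 rows (46.6%) and a median of -0.01 over all rows. The cluster's median was 0.23 within series 27 and 0.04 within series 28. Of the 24 rows with a higher mean and an unadjusted p under 0.05, 12 were members, while 0 of the 13 lower rows were. The 6 members before Mir431 had a median of 0.33, the 9 from Mir431 to Mir136 had 0.16 and the 38 from Mir379 onward had 0.18. Neighbouring hairpins share a transcript, so these rows are not independent.

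Outside that cluster, miR-298-5p from the imprinted Gnas region (hairpin chr2:174267504-174267585) ran from 2.67 to 5.49 RPM in sham (median 3.47) and from 4.16 to 9.28 with Ang II (median 5.71). The sham median was exceeded in 8 of 8 Ang II libraries, and 4 lay above every sham library. The log2 fold change was 0.57 ± 0.16 (SE, adjusted p = 0.253), and it was 0.85 in series 27 and 0.17 in series 28. With limma-voom and quality weights, 5 of 543 rows were called (0.921%). They were miR-145a-3p, miR-145b, miR-411-5p, miR-673-5p and miR-298-5p, with adjusted p values of 0.0396 for miR-411-5p, miR-673-5p and miR-298-5p and 0.0426 for miR-145b.

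miR-21a-5p, a widely expressed miRNA linked to fibrosis and cell growth, is cut from an exon of Vmp1 (hairpin chr11:86584067-86584158, minus strand). It ran from 2046 to 3383 RPM in sham (median 2997) and from 3089 to 6240 with Ang II (median 4719). All 8 Ang II libraries exceeded the sham median and 5 exceeded every sham library. The log2 fold change was 0.62 ± 0.20 (SE), a 1.54-fold level, with an adjusted p of 0.373 and a 95% interval from 0.20 to 1.04. Its partner arm miR-21a-3p ran from 14.9 to 43.0 RPM in sham (median 22.2) and from 23.8 to 90.5 with Ang II (median 39.6), with a log2 fold change of 0.78 ± 0.28 (SE, adjusted p = 0.438). The log2 ratio of the arms differed by 0.16 (95% interval -0.19 to 0.52, adjusted p = 0.989).

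miR-21a belongs to the fibrosis and remodelling list with miR-199a, miR-199b and miR-214, of which 7 of 7 tested members had positive log2 fold changes, with 0.19 as their median (0.42 in series 27 and 0.12 in series 28, 0.49 in class A and 0.18 in class B). Both arms of miR-21a and of miR-214 are counted in that list, so its rows are not independent. Leukocytes also express miR-21a. The leukocyte list, which holds miR-142, miR-223, miR-150 and miR-511, had 6 of 7 members above 0 with a median of 0.20 (0.33 in series 27 and 0.05 in series 28), and none was called. The hematopoietic miR-142-3p ran from 20.3 to 32.7 RPM in sham and from 24.7 to 65.1 with Ang II (log2 fold change 0.42 ± 0.23 SE, adjusted p = 0.756). miR-511-3p, from an intron of the macrophage gene Mrc1, had medians of 1.98 and 2.96 RPM (0.29 ± 0.12 SE, adjusted p = 0.496). The part of leukocyte content in the miR-21a values was not tested.

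miR-132-3p, made with miR-212 from 1 locus on chromosome 11 (hairpin chr11:75173682-75173747, in an intron of 1700016P03Rik) and known to be induced through CREB, ran from 16.1 to 27.5 RPM in sham (median 20.9) and from 18.7 to 39.6 with Ang II (median 28.3). Of the 8 Ang II libraries, 6 lay above every sham library and 7 above the sham median, with a log2 fold change of 0.40 ± 0.14 (SE, adjusted p = 0.438). The less abundant miR-212-3p had medians of 3.65 and 4.04 RPM and a log2 fold change of 0.12 ± 0.15 (SE, adjusted p = 0.953). All 4 arms of the pair lay above 0, with a median of 0.25 (0.32 in series 27 and 0.11 in series 28).

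miR-574-3p, from an intron of Fam114a1 (hairpin chr5:64970318-64970395), had medians of 120 RPM in sham and 135 with Ang II, and 4 of 8 Ang II libraries lay above every sham library (log2 fold change 0.37 ± 0.14 SE, adjusted p = 0.438). The unplaced row Novel_z_48 had nearly the same values, with medians of 122 and 139 RPM, and its correlation with miR-574-3p over the 32 libraries was 0.998 (Pearson), so the rows may hold the same reads and are not counted as 2 findings. In the list of the miR-125 and miR-99/miR-100 families, 5 of 10 members lay above 0 and the median was -0.03. Higher means at an unadjusted p under 0.05 were seen for 2 of the 10, beside 24 of 543 rows (4.42%). They were miR-99b-3p (0.25, adjusted p = 0.505) and miR-125b-1-3p (0.22, adjusted p = 0.672).

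**Figure D2:**
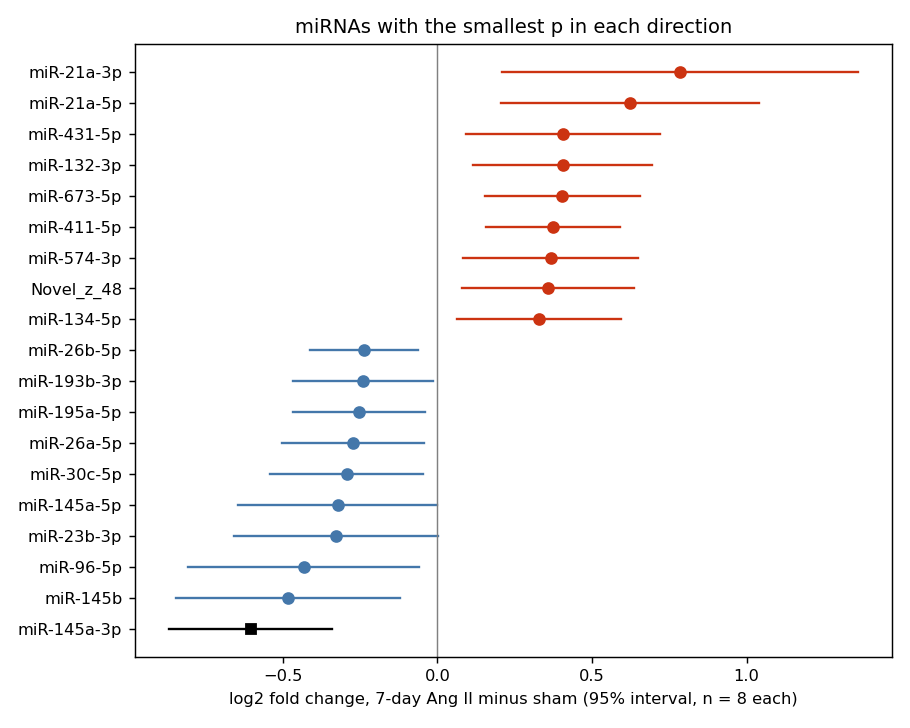
Log2 fold changes (x axis, Ang II minus sham at 7 days) with 95% intervals for the miRNAs with the smallest p in each direction at a mean of at least 10 RPM. The black square marks miR-145a-3p at -0.60, the single call, and the row Novel_z_1, whose estimate of 4.11 would stretch the axis, is left out.

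Among miRNAs with lower means in Ang II libraries, none besides miR-145a-3p was called with limma, while limma-voom also called miR-145b. miR-26a-5p, which is made from introns and exons of the Ctdsp phosphatase genes and restrains the cell cycle, ran from 49814 to 74473 RPM in sham (median 66312) and from 45158 to 64231 with Ang II (median 54072). All 8 Ang II libraries lay below the sham median. The log2 fold change was -0.27 ± 0.11 (SE, adjusted p = 0.496), with -0.25 within class A and -0.38 within class B. Its paralogue miR-26b-5p (hairpin chr1:74394310-74394394, in an intron of Ctdsp1) had medians of 2717 and 2332 RPM and a log2 fold change of -0.24 ± 0.09 (SE, adjusted p = 0.438).

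miR-30c-5p ran from 2535 to 4088 RPM in sham (median 3194) and from 2112 to 3049 with Ang II (median 2716), and 8 of 8 Ang II libraries lay below the sham median (log2 fold change -0.29 ± 0.12 SE, adjusted p = 0.496). miR-195a-5p, a member of the growth-restraining miR-15/miR-16 family, had medians of 1044 and 827 RPM, with 5 of 8 Ang II libraries below every sham library (-0.25 ± 0.10 SE, adjusted p = 0.496). The remaining lower leads were miR-23b-3p with -0.33 ± 0.16 (SE, adjusted p = 0.704), the epithelial and sensory miR-96-5p with -0.43 ± 0.18 (SE, adjusted p = 0.519) and miR-193b-3p, abundant in adipose tissue, with -0.24 ± 0.11 (SE, adjusted p = 0.668). For miR-96-5p the medians were 12.5 and 9.18 RPM and the groups overlapped widely.

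Minor arms of 2 further hairpins had low p values at low levels. miR-29a-5p, the less abundant arm of a hairpin whose other arm represses collagens, ran from 1.61 to 3.03 RPM in sham (median 2.11) and from 0.739 to 2.16 with Ang II (median 1.36), with a log2 fold change of -0.36 ± 0.12 (SE, adjusted p = 0.373). In the miR-29 family 0 of 5 tested members lay above 0, with a median of -0.18. Within class A that median was 0.01. miR-24-1-5p had medians of 6.41 and 4.82 RPM, and all 8 Ang II libraries lay below the sham median (-0.40 ± 0.15 SE, adjusted p = 0.438). The endothelial miR-126-3p had medians of 2118 and 1912 RPM with 8 of 8 Ang II libraries below the sham median (-0.20 ± 0.11 SE, adjusted p = 0.756). Series 27 gave -0.05 for this miRNA and series 28 gave -0.40. The endothelium list as a whole did not share this direction, since 2 of its 4 tested members lay above 0 and the median was 0.06.

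In several lists that held no call, all members had the same sign over the pooled libraries. None of the 6 tested members of the miR-10 and miR-196 list lay above 0 (median -0.17), nor any of the 6 of the miR-181 family (median -0.10), the 9 of the clusters of miR-23, miR-27 and miR-24 (median -0.12) or the 4 of the miR-101 family (median -0.12). With library totals alone, 2 of 6 members of the miR-181 family and 2 of 9 of the miR-23, miR-27 and miR-24 clusters lay above 0. Within series 28 the medians were 0.07 for the miR-181 family and 0.01 for the miR-101 family, and the miR-181 median was -0.005 within class B. The miR-101 list includes miR-101a-3p and miR-101c, whose values were nearly identical. miR-181c-5p, with the smallest p of the miR-181 family, had a log2 fold change of -0.18 ± 0.10 (SE, adjusted p = 0.756). All 5 red blood cell rows lay above 0 with a median of 0.35, led by miR-486-5p/miR-3107-5p at 0.66 ± 0.37 (SE, adjusted p = 0.756), and their median stood at 0.81 in class A and at 0.04 in class B.

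Medians nearer to 0 were found for the let-7 family (6 of 19 above 0, median -0.09), the miR-30 family (2 of 11, -0.09), the miR-17 clusters (6 of 9, 0.04, with miR-92a-3p at 0.25 ± 0.13 SE) and the miR-106b cluster (4 of 5, 0.08, with miR-106b-3p at 0.31 ± 0.16 SE). Lists of other tissues gave 2 of 10 members above 0 for epithelium (median -0.12, with miR-203-3p at -0.14 ± 0.13 SE), 2 of 12 for neurons (median -0.26, with miR-129-2-3p at -0.38 ± 0.20 SE) and 2 of 7 for pancreatic acinar cells (median -0.04). The medians of the let-7, miR-30, miR-17, miR-106b, epithelium and pancreatic acinar lists differed in sign between series 27 and series 28. The contractile smooth muscle list had 0 of 5 members above 0, or 1 of 5 with library totals alone, and a median of -0.32. Its median was -0.11 within class B, -0.36 within class A, -0.28 within series 27 and -0.50 within series 28. This list holds the called miR-145a-3p at -0.60, and its highest value was -0.04, that of miR-143-3p. Rows of the miR-143 and miR-145a locus share a transcript, so they are not independent.

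**Figure D3:**
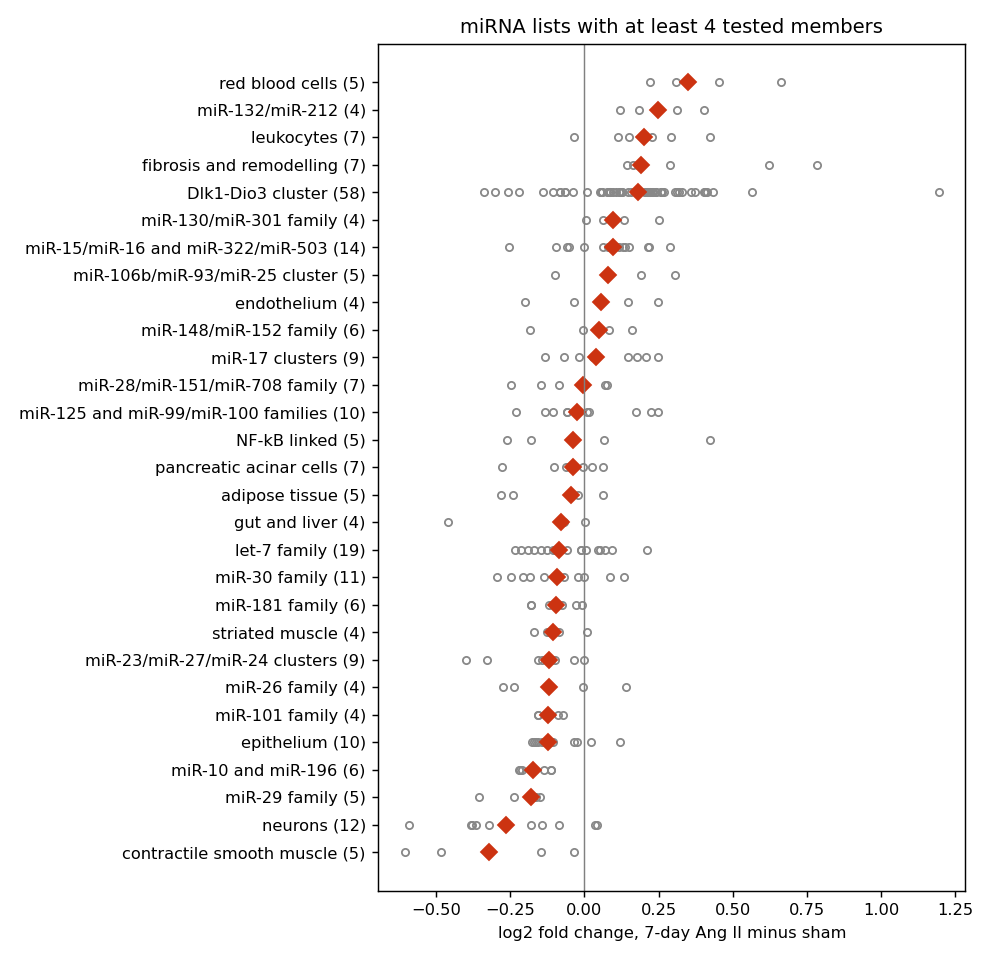
Log2 fold changes at 7 days (x axis, Ang II minus sham) of every tested member of each list with at least 4 tested members (circles), with the list's median (diamond) and the number of members in parentheses. Medians run from -0.32 for contractile smooth muscle to 0.35 for red blood cells.

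The rows of a shared seed were summed to ask whether families moved as a unit. Of 44 families, 0 were called with limma, and 6 had an unadjusted p under 0.05 (13.6%), of which 4 were higher (9.09%) and 2 lower (4.55%). The miR-21 seed AGCUUAU, held almost entirely by miR-21a-5p, had a sum of 2829 ± 491 RPM in the sham libraries and 4412 ± 1098 after Ang II (SD, n = 8 per group, difference of 0.62 on the log2 scale, limma adjusted p = 0.216). The miR-132/miR-212 seed AACAGUC had 24.7 ± 3.96 and 32.5 ± 7.14 RPM (log2 fold change 0.37, limma adjusted p = 0.216). The miR-26 seed UCAAGUA had 67828 ± 7855 and 56176 ± 6669 RPM (log2 fold change -0.27, limma adjusted p = 0.216). With library class as a term, 3 families were called, miR-132/miR-212 (adjusted p = 0.0407), miR-26 (adjusted p = 0.0454) and the miR-10 seed ACCCUGU (adjusted p = 0.0454). The classes were drawn from the tested values, so the calls of that fit are a description and not separate evidence. The log2 fold change of the miR-10 seed was -0.45 in that fit and -0.17 without the term (adjusted p = 0.933). Its members miR-10b-5p and miR-10a-5p had values above 0 within series 28 (0.62 and 0.39) and with limma-voom (0.25 and 0.10). The seed ACUGGCC of the miR-193 pair (-0.20) and AUGUAAC of miR-379-3p and miR-411-3p (0.30) followed, each with an adjusted p of 0.255.

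The arms of 114 hairpins could be compared within libraries, and 0 ratios were called with limma, while 3 had an unadjusted p under 0.05 (2.63%), 2 of them higher (1.75%) and 1 lower (0.877%). The smallest p belonged to miR-540 of the Dlk1-Dio3 cluster (hairpin chr12:109586080-109586146), whose mature arms are shown above. Its log2 ratio of 3p to 5p ran from -0.35 to 1.04 in sham (median 0.48) and from 0.78 to 2.07 with Ang II (median 1.19). All 8 Ang II libraries lay above the sham median and 5 above every sham library. The ratio differed by 0.82 ± 0.23 (SE, adjusted p = 0.106), and by 0.96 with library class as a term (adjusted p = 0.00102), which made it the 1 ratio called in that fit. Since the classes were drawn from the tested values, that call is a description and adds no separate support to the main test.

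The estimates for the arms of miR-540 had opposite signs. miR-540-3p ran from 4.05 to 7.77 RPM in sham (median 5.08) and from 6.10 to 13.1 with Ang II (median 7.42), with a log2 fold change of 0.57 ± 0.18 (SE, adjusted p = 0.324). miR-540-5p had medians of 3.17 and 2.82 RPM and a log2 fold change of -0.26 ± 0.17 (SE, adjusted p = 0.852). Within series 27 and series 28 the values of miR-540-5p were -0.47 and -0.03, and those of miR-540-3p were 0.69 and 0.33. At 14 days the ratio differed by 0.16 (adjusted p = 0.821). The next 4 ratios by p were those of miR-434 (-0.37), miR-409 (0.60), miR-664 (-0.34) and miR-142 (0.19), each with an adjusted p of 0.897.

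**Figure D4:**
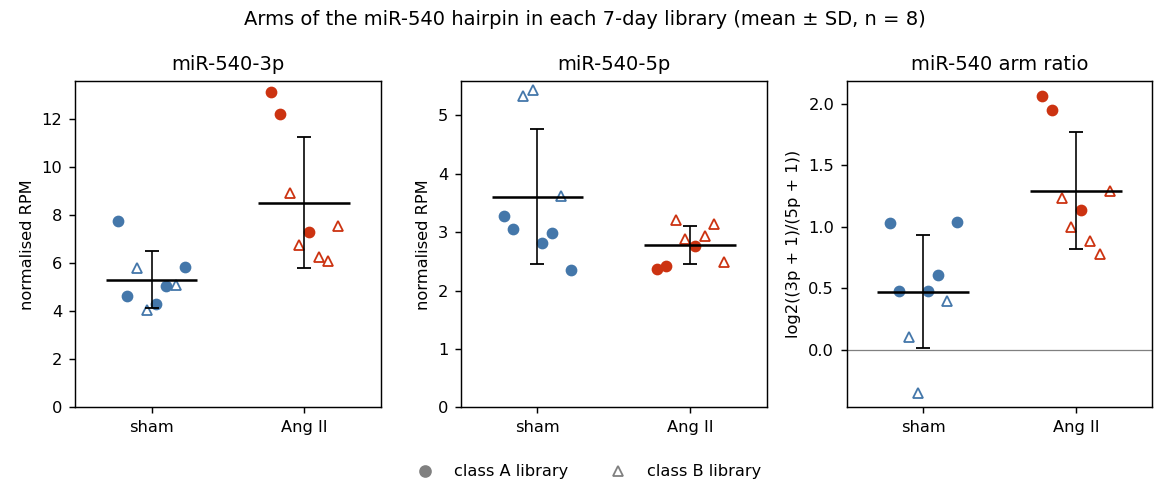
Normalised RPM of the arms of miR-540 and their log2 ratio in each 7-day library, sham in blue and Ang II in red, with filled circles for class A, open triangles for class B, and bars with whiskers for mean ± SD (n = 8). The ratio is 0.78 or higher in every Ang II library, while the sham libraries reach 1.04.

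A log2 difference beyond 1 was seen in 5 rows, none of them called, and 4 of these are unplaced entries (Novel_z_1, Novel_z_4, Novel_z_7 and Novel_x_4). They and miR-379-5p are named for this size, after their values were seen. Novel_z_1 was listed at 0 in 7 of 8 sham libraries and at 133 RPM in sham replicate 7, while 6 of 8 Ang II libraries held 36.0 to 146 RPM and 2 were at 0. Reads were present in 5 of 5 Ang II and 1 of 3 sham libraries of class B, and in 1 of 3 Ang II and 0 of 5 sham libraries of class A. miR-379-5p, the first hairpin of the distal Dlk1-Dio3 group, ran from 3.68 to 20.8 RPM in sham (median 6.56) and from 5.19 to 63.7 with Ang II (median 27.7). Its log2 fold change was 1.19 ± 0.56 (SE, adjusted p = 0.668), with 0.16 among class A libraries and 1.29 among class B libraries.

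The 7-day values were then set beside those of the 14-day groups, which share no library with them although all 32 enter 1 model. At 14 days 35 of 543 miRNAs were called (6.45%), 24 higher (4.42%) and 11 lower (2.03%). All 35 had the same sign at 7 days, beside 372 of all 543 rows (68.5%), and 34 or 35 did so in every fit that left out a 7-day library, while limma-voom with quality weights gave 32. Their 7-day differences were small. The 24 higher miRNAs had a median log2 fold change of 0.22 at 7 days, from 0.06 to 0.41, and of 0.60 at 14 days. The 11 lower ones had a median of -0.16 at 7 days, from -0.43 to -0.08, and of -0.46 at 14 days. Because they were chosen on their 14-day values, the smaller size at 7 days is a description. An unadjusted p under 0.05 at 7 days was reached by 8 of the 35 (22.9%), and 0 were called.

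In single 7-day libraries, Ang II replicates 1 and 2 lay above the sham median for 24 of the 24 higher miRNAs, and the other Ang II libraries for 11 to 21. Sham libraries, each set against the other sham libraries, did so for 3 to 20. For the 11 lower miRNAs, the Ang II libraries lay below the sham median for 4 to 11 and the sham libraries for 0 to 11, so the groups overlapped. Of the 24 higher miRNAs, 14 belong to the Dlk1-Dio3 cluster and share transcripts.

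**Figure D5:**
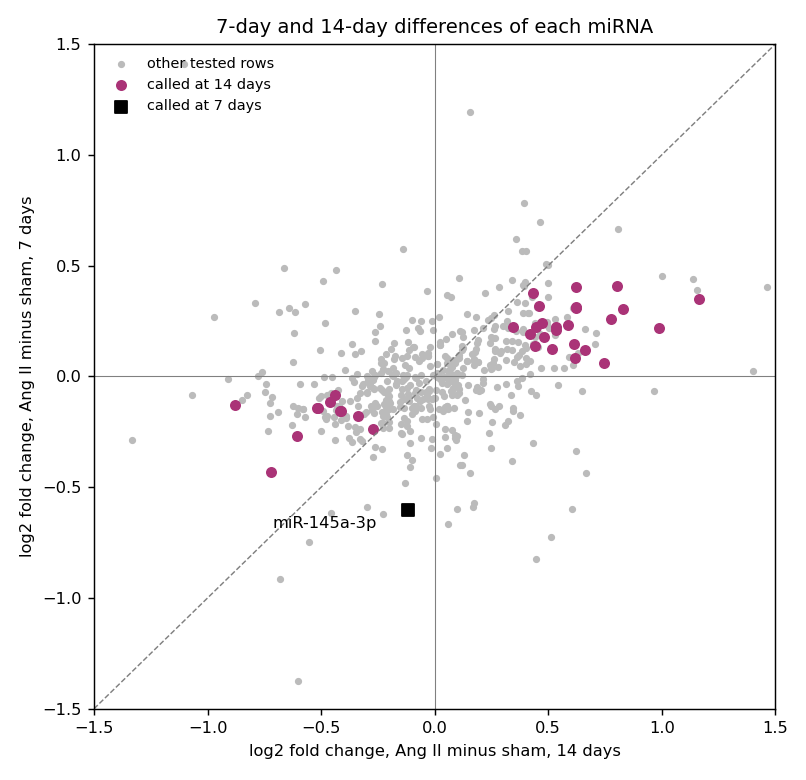
Log2 fold change at 14 days (x axis) against that at 7 days (y axis) for each tested miRNA, with the 35 called at 14 days in purple, miR-145a-3p as a black square, and 4 rows outside the axes not drawn. The purple points lie above 0 on both axes or below 0 on both, and nearer to 0 at 7 days, while miR-145a-3p lies at -0.60 at 7 days and -0.12 at 14 days.

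A direct test of the difference between the 7-day and 14-day effects called 0 of 543 rows with limma, and 25 had an unadjusted p under 0.05 (4.6%), 5 of them higher at 7 days (0.921%) and 20 lower (3.68%). The 5 with the smallest p were miR-382-5p, miR-409-5p, miR-29a-5p, miR-145a-3p and Novel_x_29. For miR-145a-3p the 7-day effect was lower than the 14-day effect by 0.49 on the log2 scale (difference -0.49, adjusted p = 0.804). miR-382-5p had a log2 fold change of 0.06 at 7 days and 0.75 at 14 days (adjusted p of the difference 0.804), and its groups at 7 days, with medians of 3.50 and 3.90 RPM, overlapped nearly throughout. For miR-409-5p the values were -0.34 and 0.62, and for Novel_x_29 -0.43 and 0.67, each with an adjusted p of the difference of 0.804. Of the 37 rows with an unadjusted p under 0.05 at 7 days, 22 of the 24 higher and 8 of the 13 lower had the same sign at 14 days.

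The size of effect that 8 libraries per group left possible can be read from the intervals. The 95% interval of the 7-day log2 fold change lay within -1 and 1 for 477 of 543 rows (87.8%). Among the rows averaging at least 10 RPM that are not unplaced entries, 218 of 232 did so. Values were fitted as log2(value + 1), which understates the fold changes of low rows. For low rows an interval within -1 and 1 therefore does not exclude a 2-fold change. The median half-width of the interval was 0.37, which exceeds the 7-day median of the miRNAs called at 14 days.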

How the data were processed

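The deposited table gives a signal for each miRNA row, with 1 column per mouse. In each column 100% of the values were multiples of 1 step to within 0.001 read, so the authors' signal was treated as normalised RPM and reads were recovered from the steps. The submitters' processing notes list the build mm10, STAR 2.3.1, edgeR 3.6.8 in R 3.2.3, FastQC and bcl2fastq 1.8.4, without their roles. The annotation and the treatment of multiply mapping reads are not given in the sources used here.

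For each name the row of highest mean was used, equal rows were merged, and rows with a mean of at least 1 were tested. Because values were normalised, limma-trend in R 4.3.3 (limma 3.58.1), fitted to log2(value + 1), replaced a count test, with 1 model of 4 groups over 32 libraries and two-sided Benjamini-Hochberg adjusted p values over 543 rows. Fold changes on this scale understate those of low rows. Arm ratios were log2((3p + 1)/(5p + 1)), and seed families were summed rows sharing bases 2 to 8 among the 355 rows matched to RefSeq. Alternatives on recovered reads used edgeR 4.0.16 (quasi-likelihood, TMM, RLE), limma-voom with quality weights and DESeq2 1.42.0. On the recovered reads edgeR called 1 row and DESeq2 called 1. The limma script was tested on simulated data.

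The level of 3 reads was 0.124 to 0.277 RPM and covers counting error alone. Mouse-number series are the leading 2 digits of the labels' mouse numbers (27 or 28 at 7 days). Named miRNAs were the called ones, the 10 smallest p values per direction at a mean of at least 10, up to 2 per list, and the 5 smallest p values for arms, families and the difference of effects. miR-155-5p and some list members under this rule, which did not pass, are not described. Members and lists were chosen with earlier results of these data known. Library class was drawn from the tested values, so calls with it as a term are a description. Library class and the 14-day alternatives were added after seeing the data.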

Additional observations from a re-analysis of the deposited data

Results flagged for a closer look

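Of 92 groups of 8 libraries examined over the named miRNAs, 7 held 1 library far from the others by Dixon's criterion, which chance flags in about 1 of 20 groups. Sham replicate 7 held 133 RPM of Novel_z_1, where the other 7 sham libraries were at 0. Sham replicate 5 was high for miR-29a-5p at 3.03 RPM, where the others ran from 1.61 to 2.17. Sham replicate 8 was high for miR-24-1-5p at 10.4 RPM, where the others reached 7.11. Sham replicate 4 was high for miR-486-5p/miR-3107-5p at 46644 RPM and for miR-10b-5p at 209285 RPM, where the others reached 25616 and 126634. Sham replicate 1 was high for miR-409-5p at 5.04 RPM, where the others reached 2.21. Ang II replicate 2 was high for miR-92a-3p at 1789 RPM, where the others reached 1254.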

How the results depend on the processing

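At 7 days the count of calls was 0 with library totals alone and with the 7-day libraries alone, 5 with limma-voom, and 0 to 1 over the fits that left out a library. At 14 days it was 23 with library totals, 17 with no filter, 80 with library class as a term, 55 with edgeR, 15 with limma-voom and 61 with DESeq2. Library class as a term called 1 arm ratio and 3 seed families, and the 7-day libraries alone called 1 family, the miR-21 seed (adjusted p = 0.0453). The cause of these moves was not tested.

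Of 1505 alternative values, 21 reversed a direction. With limma-voom the log2 fold change was 0.15 for miR-143-3p, 0.25 for miR-10b-5p, 0.10 for miR-10a-5p and 0.20 for miR-30a-5p, and within series 28 it was 0.41, 0.62, 0.39 and 0.69. For miR-143-3p it was 0.0090 with library totals, 0.0021 with the series as a term and 0.024 with edgeR. Leaving out 1 library gave -0.12 to 0.057 for miR-143-3p and -0.19 to 0.033 for miR-30a-5p. Within class B miR-382-5p was at -0.13. No paired analysis was possible because the replicate numbers were given in accession order and no mouse number is shared between groups. With library totals the median log2 fold change of all rows moved from -0.01 to 0.02, so directions are relative to the authors' scaling. Depth limits rows near 1 RPM, where 3 reads stand at 0.124 to 0.277 RPM.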
